A study of Mus musculus with 3 samples.

Results

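The spliceosomal small nuclear RNAs (snRNAs) and the RNAs classed as misc_RNA were examined among transcripts recovered with Mettl3 or Zfp217 from nuclei of CCE cells, a mouse embryonic stem cell line. Every transcript that the deposited tables class as snRNA or misc_RNA was taken, except symbols that begin with Scarna, of which none was present. This gave 141 transcripts of the 13595 listed in either table: 106 of 9501 for Mettl3 (1.12%) and 75 of 8120 for Zfp217 (0.924%). The Mettl3 table held 34 snRNAs and 72 misc_RNAs, and there were 30 and 45 for Zfp217.

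RNA immunoprecipitation followed by sequencing (RIP-seq) was done on 3 libraries. The Mettl3 RIP used a Bethyl antibody, the Zfp217 RIP a Santa Cruz antibody, and the input was RNA taken without immunoprecipitation. All came from untreated CCE cells kept without feeders on gelatin in LIF medium, and no genotype other than that of the line is labelled. A control immunoprecipitation was not analysed here. With 1 library in each group, no difference below has a replicate check, and no p-value was computed. The samples are bulk lysates, so fewer cells that hold an RNA and less of it per cell cannot be told apart.

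In splicing, U1 pairs with the 5′ splice site, U2 with the branch site, and U5 and U6 act at the catalytic core, while U12 takes the place of U2 at a rare class of introns. 7SK holds the elongation factor P-TEFb inactive, 7SL is the RNA of the signal recognition particle, and RNase P trims the 5′ end of precursor tRNAs. Each of these RNAs has a few active genes and a large number of copies elsewhere in the genome, many of them pseudogenes. The enzyme that places N6-methyladenosine (m6A) on mRNA has Mettl3 as its active subunit. Zfp217 carries zinc fingers and acts at chromatin. In mammals U6 is methylated by Mettl16 and U2 by Mettl4, not by Mettl3.

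Values are FPKM, which scale the fragments of a transcript to its length and to the mapped fragments of the library. Each table is a selection: the RIP value was always at least 1 FPKM and, where the input was above 0, at least 1.5 times the input. A copy that is not listed may therefore have been absent or low in the RIP, lower there than in the input, equal, or higher by less than 1.5-fold. The tables held markers of the labelled cell type: 5 of 8 embryonic stem cell markers were listed in each, Sox2 among them at 42.2 FPKM in the input, and 0 of 8 markers of differentiated lineages. Listing depends on the RIP value, so a marker of either kind that is not listed may still have been expressed.

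Of the 141 copies, 82 had an identifier in the GENCODE M21 annotation (build GRCm38), which gave lengths and sequences. The symbols sorted all 141 into 22 U1, 4 U2, 3 U5, 21 U6, 1 U12, 26 7SK and 2 RNase P copies. The others carried the name of a genomic clone, 1 of them classed as snRNA and 61 as misc_RNA. Neither table listed a U4, U7, U11, U4atac or U6atac symbol, a Y RNA, RNase MRP or vault RNA. The matched copies with a family symbol were aligned to 19 named genes of these families, and all of them aligned best to a gene of their own family. The clone-named snRNA, AC121599.1 (Gm25328), shared 97 of 107 bases with Rnu6. Of the 12 matched clone-named misc_RNAs, 11 aligned best to 7SL. None of the 19 named genes was itself listed in either table under its M21 identifier, Rnu1a1, Rnu2-10, Rnu6, Rn7sk and Rn7s1 included. A named gene among the copies without an M21 identifier would not be seen by this match.

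What the copies shared first was an input of 0. For Mettl3 83 of 106 copies (78.3%) were listed at 0 FPKM in the input, against 31.4% of all transcripts. In the Zfp217 table these were 62 of 75 (82.7%) against 38.9%. In the Mettl3 RIP the copies had a median of 4.31 FPKM, with quartiles of 2.19 and 10.01 FPKM, against 2.66 FPKM for all transcripts. In the Zfp217 RIP the median was 3.65 FPKM, with quartiles of 1.77 and 10.6, against 2.25 FPKM.

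The FPKM scale is steep at these lengths, and 1 read stood behind many of the values. FPKM values of short RNAs fell on whole multiples of a value that depended on the length, so the reads could be recovered. In the Mettl3 RIP 1 read was worth 47.3 FPKM at 107 nt, the length of U6, 3.19 FPKM at 165 nt, that of U1, and 0.642 FPKM at 300 nt. In the Zfp217 RIP it was worth 66.9, 4.39 and 0.886 FPKM, and in the input, as given in the Mettl3 table, 78.1, 5.27 and 1.06 FPKM. Of the values of up to 12 reads, 93.6% in the Mettl3 RIP and 95.8% in the Zfp217 RIP came within 0.1 of a whole read. For the input these were 89.5% in the Mettl3 table and 87.0% in the Zfp217 table. The value of 1 read was fitted to these same values, so the shares are not an independent check. Reads were recovered for 51 copies for Mettl3, of which 38 (74.5%) had 3 reads or fewer and 19 had 1. For Zfp217 they were recovered for 47 copies, 41 of them (87.2%) at 3 or fewer and 25 at 1. These lengths also set what could be listed: with an input of 0, a single read lists a U6 copy, while a 7SK copy of 300 nt needs more than 1 in either RIP. The plot of level against length shows the copies on these steps.

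**Figure D1:**
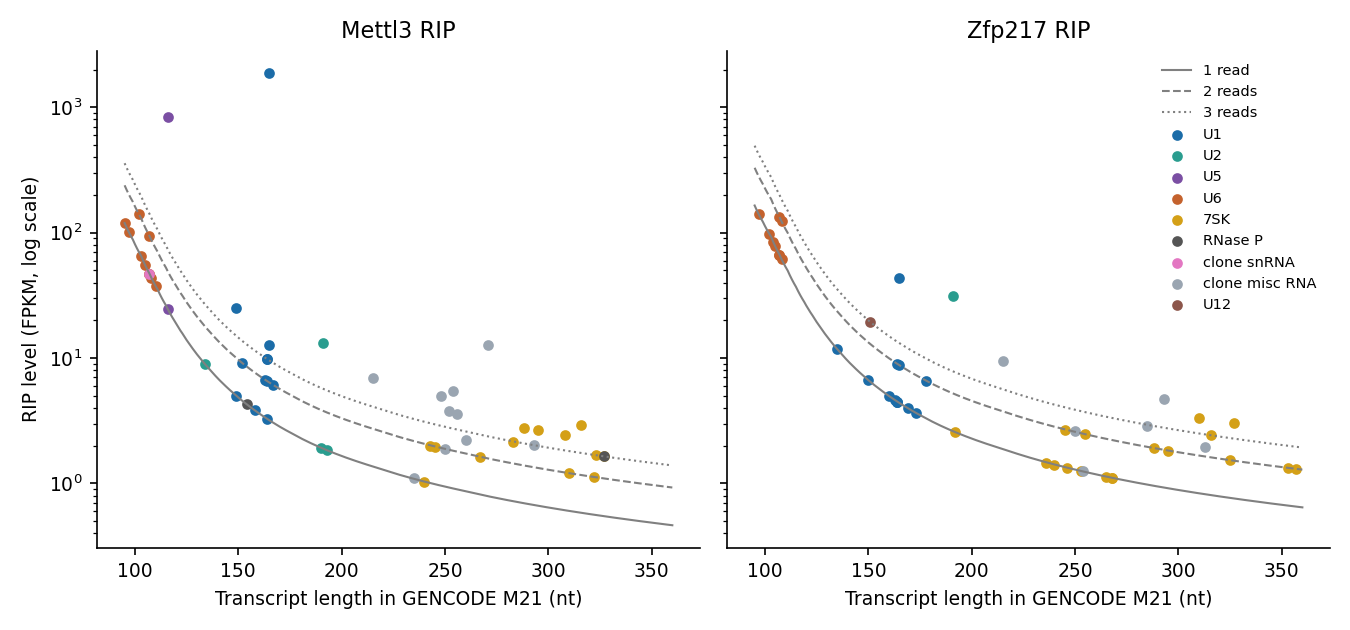
RIP level (FPKM, log scale) against transcript length (nt) for the copies with a GENCODE M21 length, 1 point per copy, coloured by family; the lines give the level of 1, 2 and 3 reads. Most copies lie on or between these lines; a U1 copy at 1867 FPKM and a U5 copy at 830.1 FPKM in the Mettl3 RIP lie far above them.

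U1 gave the highest values in the Mettl3 RIP and, by its counting interval, the clearest difference between the antibodies. The U1 copy Gm24136 was at 1867 FPKM in the Mettl3 RIP and 8.77 FPKM in the Zfp217 RIP, and was listed at 0 in the input. These were 585 and 2 reads, a ratio of 213 with an exact 95% interval of 58.6 to 1761 that covers counting error only. Reads in the Mettl3 RIP were recovered for 51 of the 106 copies, 735 in all. Gm24136 held 79.6% of these, and 150 were left for the others with recovered reads. That share leaves out the copies of unknown length, among them ENSMUST00000082883 and ENSMUST00000097246, described next. Gm24136 lies between genes at chr3:96422733-96422897 on the plus strand (GRCm38). Gm24136 and Rnu1b6 share 161 of 166 aligned bases, and how reads were divided among such copies is not given in the sources used here.

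A pair of other U1 copies behaved likewise. ENSMUST00000082883 was at 1918 FPKM in the Mettl3 RIP with an input of 0, and ENSMUST00000097246 was at 5.28 FPKM in the input and 523.4 FPKM in the RIP, 99.2-fold higher. Neither has a length in M21. At 165 nt their Mettl3 values would be 601 and 164 reads, and the input value of the second 1 read. Neither was listed for Zfp217. The sequence of Gm24136 is printed with Rnu1b6, the named gene closest to it (161 of 166 aligned bases). Capitals mark ACTTACCTG, which pairs with the 5′ splice site, and AATTTGTGG, the site bound by the Sm proteins. Gm24046, the U1 copy with the most recovered Zfp217 reads, stands below them, 5′ to 3′ with T for U.
Rnu1b6: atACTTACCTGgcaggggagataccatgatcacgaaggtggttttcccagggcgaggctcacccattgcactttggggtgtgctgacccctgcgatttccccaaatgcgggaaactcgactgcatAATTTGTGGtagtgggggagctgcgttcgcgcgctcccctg
Gm24136: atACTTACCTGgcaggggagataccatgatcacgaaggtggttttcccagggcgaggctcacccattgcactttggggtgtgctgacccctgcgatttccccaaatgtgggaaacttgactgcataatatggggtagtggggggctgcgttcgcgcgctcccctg
Gm24046: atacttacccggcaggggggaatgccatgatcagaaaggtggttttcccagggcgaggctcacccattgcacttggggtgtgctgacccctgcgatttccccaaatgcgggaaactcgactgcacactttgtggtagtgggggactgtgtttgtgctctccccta

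Gm24136 differed from Rnu1b6 by C108T, C117T, T129A and T132G, counted from 1 at the 5′ end of Rnu1b6, and by 1 missing base. It kept the letters that pair with the splice site and lacked those of the Sm site. Gm24046 held neither run of letters. Across the family ACTTACCTG was found on the transcript strand of 6 of 18 listed copies (33.3%) and 25.5% of those not listed. In all annotated snRNA, misc_RNA and ribozyme transcripts of 135 to 178 nt, U1 copies included, it was found in 18.7%. AATTTGTGG was found in 6 of 18, in 29.7% and in 22.8%. A match or its absence is a description of these letters only.

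The rest of the U1 family was far lower and more alike in the RIPs. ENSMUST00000083086 was at 15.8 FPKM in the input and 60.6 FPKM in the Mettl3 RIP, and at 16.01 and 61.4 FPKM in the Zfp217 table. At 165 nt these would be 3 and 19 reads, and 3 and 14 reads. Gm24046 went the other way from Gm24136, with 12.8 FPKM (4 reads) in the Mettl3 RIP and 43.9 FPKM (10 reads) in the Zfp217 RIP, a ratio of 0.291 with an interval of 0.0666 to 1.01. ENSMUST00000102007 was at 16.4 and 17.98 FPKM. Gm22220, in the Mettl3 table only, was at 25.04 FPKM (5 reads). Gm25818 had 2 reads in each RIP (6.54 and 8.99 FPKM), and Gm24145 had 2 in the Mettl3 RIP (6.71 FPKM) and 1 in the Zfp217 RIP (4.61 FPKM). Over the 16 U1 copies listed for Mettl3 the median was 9.81 FPKM, and over the 15 listed for Zfp217 it was 6.60 FPKM. The recovered reads summed to 611 in 12 copies and 25 in 13 copies. Apart from the 3 highest Mettl3 copies, the U1 values of the RIPs overlapped.

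**Figure D2:**
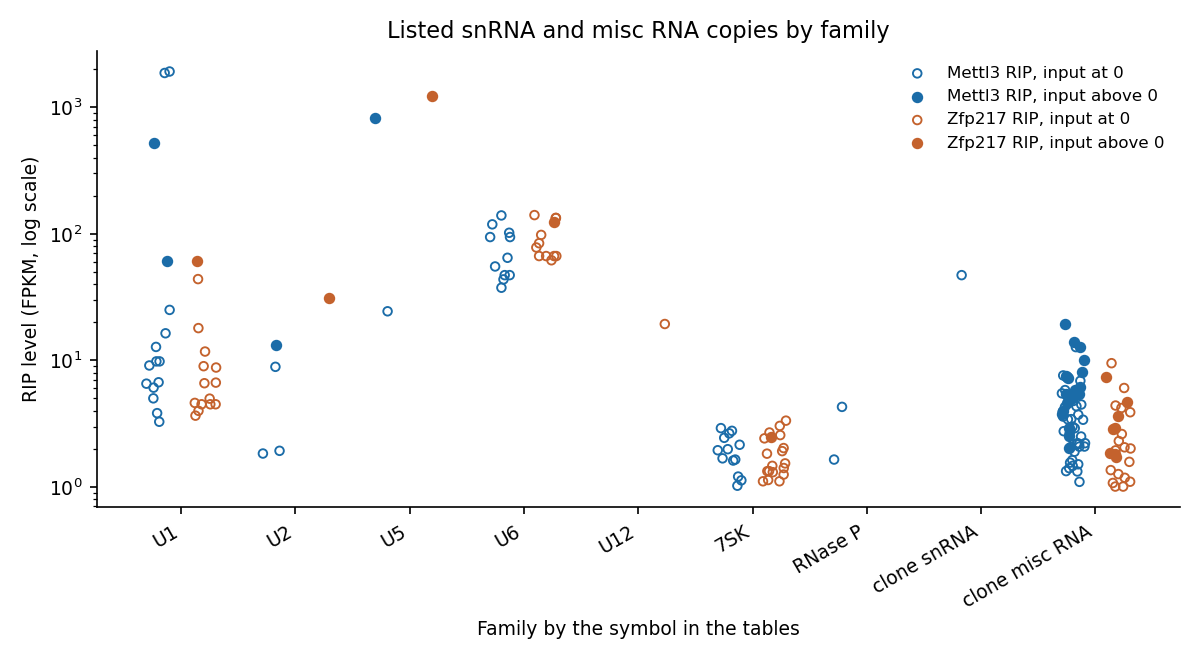
RIP level (FPKM, log scale) of every listed copy by family, Mettl3 in blue and Zfp217 in orange; open points had an input of 0 and filled points an input above 0. The U1 copies of the Mettl3 RIP reach 1918 FPKM, the U6 copies lie between 37.5 and 140.6 FPKM, and the 7SK copies between 1.02 and 3.34 FPKM.

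Of the 4 U2 copies, Gm23971 was the only one listed for both antibodies. It was at 6.28 FPKM in the input and 13.3 FPKM in the Mettl3 RIP (2 and 7 reads), a ratio of 2.11 (interval 0.402 to 20.8). In the Zfp217 table it was at 6.35 and 31.3 FPKM (2 and 12 reads), a ratio of 4.93 (interval 1.10 to 45.4). The Mettl3 to Zfp217 ratio was 0.424, with an interval of 0.141 to 1.17. Its sequence is that of the named gene Rnu2-10 and is shared by 4 annotated genes, so its reads cannot be assigned to 1 locus, and how the authors treated such reads is not given in the sources used here. It lies between genes at chr11:101645740-101645930 on the minus strand. Capitals mark GTAGTA, which pairs with the branch site, and ATTTTTGG at the Sm site.
Gm23971: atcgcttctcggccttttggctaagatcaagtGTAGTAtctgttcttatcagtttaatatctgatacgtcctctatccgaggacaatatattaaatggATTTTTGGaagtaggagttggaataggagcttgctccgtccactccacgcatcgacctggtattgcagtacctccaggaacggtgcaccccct

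The other 3 U2 copies, Gm25259 (1.83 FPKM), Gm24763 (1.93 FPKM) and Gm25106 (8.89 FPKM), had 1 read each in the Mettl3 RIP, an input of 0, and no entry for Zfp217. GTAGTA was found in 3 of the 4 copies and in 58.0% of U2 copies not listed. In all annotated snRNA, misc_RNA and ribozyme transcripts of 134 to 193 nt, U2 copies included, it was found in 12.1%. ATTTTTGG was found in 1 of 4, in 38.0% and in 6.52%.

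A U5 copy, Gm22265, had the most recovered input reads of a single copy. It was at 486.5 FPKM in the input and 830.1 FPKM in the Mettl3 RIP, which were 12 and 34 reads. The ratio was 1.71, and its interval ran from 0.862 to 3.62. Gm22265 lies in an intron of Hhat, on the other strand. ENSMUST00000093725, listed for Zfp217 only, was at 573.7 FPKM in the input and 1239 FPKM in the RIP, 2.16-fold higher. Gm25313 had 1 read (24.4 FPKM) in the Mettl3 RIP and an input of 0. No U5 copy was listed for both antibodies.

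U6 copies were many, and their high FPKM stood on single reads. The 11 copies in the Mettl3 table spanned 37.5 to 139.7 FPKM and the 12 for Zfp217 61.8 to 140.6 FPKM, and each of the 10 and 9 with recovered reads had 1 or 2. Only Gm25321 and Gm23865 were in both tables. Gm25321 was at 139.7 FPKM (2 reads) for Mettl3 and 98.0 FPKM (1 read) for Zfp217, and Gm23865 at 101.9 and 140.6 FPKM (1 read each). Gm25220 followed in the Mettl3 RIP at 118.8 FPKM, and Gm24018 and ENSMUST00000083790 in the Zfp217 RIP, both at 133.5 FPKM. Gm22505 was the only U6 copy with an input above 0. It was at 72.1 FPKM there and 123.6 FPKM in the Zfp217 RIP (1 and 2 reads), a ratio of 1.71 (interval 0.0893 to 101.2).

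U12 was represented by Gm24525, at 19.4 FPKM (3 reads) in the Zfp217 RIP with an input of 0, and absent from the Mettl3 table. It lies in an intron of Zfp804b on the same strand (chr5:7177706-7177856, minus strand). It differed from Rnu12 by C11A, G16A, C31T, G113A, G137A and C150A, counted from the 5′ end of Rnu12, and kept AATTTTTGA, the Sm site in capitals. That run was found in 3 of 5 U12 copies not listed and in 37.5% of annotated snRNA, misc_RNA and ribozyme transcripts of 151 nt.
Rnu12: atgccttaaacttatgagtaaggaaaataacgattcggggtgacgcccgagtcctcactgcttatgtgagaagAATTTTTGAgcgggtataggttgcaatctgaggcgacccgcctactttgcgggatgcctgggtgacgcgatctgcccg
Gm24525: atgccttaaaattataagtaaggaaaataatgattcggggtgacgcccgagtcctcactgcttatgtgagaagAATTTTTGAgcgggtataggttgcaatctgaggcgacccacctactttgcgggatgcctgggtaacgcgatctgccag

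7SK copies had low FPKM values and rested on slightly more reads. The 13 copies in the Mettl3 table spanned 1.02 to 2.91 FPKM with a median of 1.95, and the 19 for Zfp217 1.11 to 3.34 FPKM with a median of 1.53. The most reads in a copy were 5 for Mettl3 and 4 for Zfp217. Gm22596, in an intron of Dnttip1, was highest for Mettl3 at 2.91 FPKM (5 reads), against 2.42 FPKM (3 reads) for Zfp217. Gm24636 (2.77 FPKM, 4 reads) was listed for Mettl3 only, and Gm23553 had 2.65 FPKM (4 reads) and 1.83 FPKM (2 reads). Gm22275, in an intron of Rad50 on the other strand, was highest for Zfp217 at 3.34 FPKM (4 reads), against 1.21 FPKM (2 reads) for Mettl3. Gm25580 had 3.03 FPKM for Zfp217 and 1.64 FPKM for Mettl3 (4 and 3 reads), and Gm25363 had 2.69 and 1.95 FPKM (2 reads each). Gm26353 was the only 7SK copy with an input above 0, at 1.48 FPKM there and 2.46 FPKM in the Zfp217 RIP (1 and 2 reads, interval of the ratio 0.0866 to 98.2). None of the 25 listed 7SK copies with a sequence in M21 matched more than 68.0% of the bases of Rn7sk, and the median match was 52.6%, against 49.8% for copies not listed. RNase P was listed for Mettl3 only, with Gm22811 at 4.29 FPKM (1 read) and Rprl1 at 1.64 FPKM (3 reads), both with an input of 0.

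The clone-named misc_RNAs were the largest group, with 57 copies in the Mettl3 table, 26 in the Zfp217 table and 22 in both. Their RIP levels spanned 1.10 to 19.2 FPKM (median 3.59) and 1.01 to 9.50 FPKM (median 2.03). In this group 19 copies for Mettl3 and 8 for Zfp217 had an input above 0, more than in all other families together. The 7SL match of the 12 with a sequence ranged from near full length to a fragment: Gm24105 (AC122546.1) shared 275 of the 300 bases of Rn7s1, Gm24514 (AC149599.1) 249, Gm23153 (AC124613.1) 202 and the others between 57 and 71. Gm22642 (AC132327.1) did not reach the minimum alignment score of 30.

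Gm24105 was at 1.11 FPKM in the input and 2.04 FPKM in the Mettl3 RIP (1 and 3 reads), and at 1.12 and 4.70 FPKM in the Zfp217 table (1 and 5 reads). AL954388.2 had the highest fold of the group for Mettl3, 10.4, from 0.969 FPKM in the input to 10.1 FPKM. AC122247.1 was at 1.10 and 8.05 FPKM for Mettl3 (7.33-fold) and at 1.11 and 1.85 FPKM for Zfp217 (1.67-fold). AL596108.1 was at 1.07 and 5.88 FPKM (5.50-fold), and at 1.08 and 1.81 FPKM (1.67-fold). Both copies had the larger value in the Mettl3 RIP. AL589767.1 went from 2.63 to 12.8 FPKM (4.88-fold) and AL662894.1, the highest of the group, from 4.76 to 19.2 FPKM (4.04-fold), both for Mettl3 only. AL732525.1 was at 1.45 and 6.18 FPKM for Mettl3 (4.26-fold) and at 1.47 and 3.66 FPKM for Zfp217 (2.496-fold).

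AL672076.1 had the larger value in the Zfp217 RIP, at 2.17 and 3.97 FPKM for Mettl3 (1.83-fold) and 2.19 and 7.32 FPKM for Zfp217 (3.34-fold). AC153624.1 was at 1.02 and 2.502 FPKM, and at 1.03 and 1.73 FPKM. For Mettl3 alone, AC123616.1 went from 5.75 to 14.0 FPKM (2.44-fold), AC133195.1 from 1.26 to 5.398 FPKM (4.27-fold) and AC132327.1 from 1.56 to 3.79 FPKM (1 and 4 reads). Further copies listed for Mettl3 alone, AC131316.1, AC132575.1, AC136021.1, AC148990.1, AC158995.1, AC161246.1 and AL807764.1, were between 1.52-fold and 2.24-fold higher than inputs of 1.89 to 4.33 FPKM. For Zfp217 alone, AC149599.1 went from 1.15 to 2.87 FPKM (1 and 3 reads, interval of the ratio 0.201 to 131.6) and AC159897.1 from 1.16 to 2.91 FPKM, 2.51-fold each. AC122537.1 was the highest of the group for Zfp217 at 9.50 FPKM, with 6.89 FPKM for Mettl3 (5 reads each) and an input of 0, and AC087556.1 was at 6.05 and 2.63 FPKM.

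**Figure D3:**
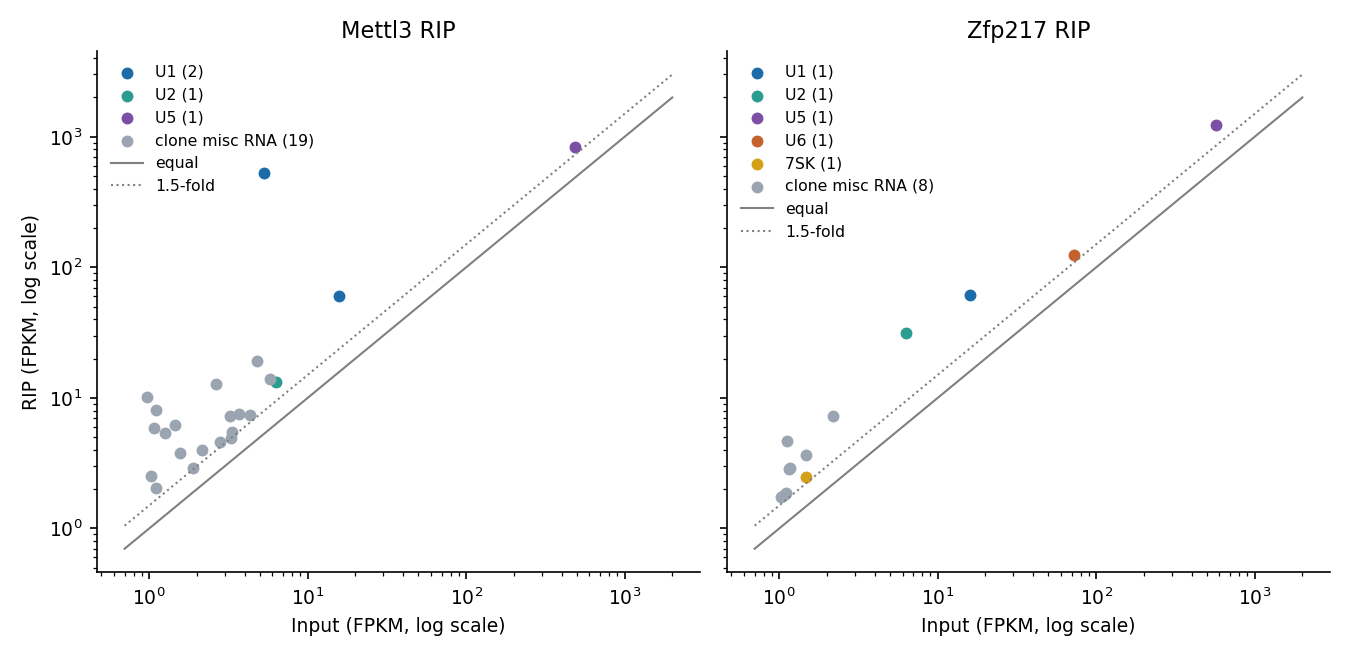
RIP against input level (FPKM, log scales) for the copies with an input above 0, coloured by family, with lines for equal levels and for the 1.5-fold limit of the tables. Most of the 19 Mettl3 and 8 Zfp217 clone-named misc_RNAs lie at the low end, 1 U1 copy of the Mettl3 RIP stands far above the lines (5.28 and 523.4 FPKM), and the U5 copies are at the top.

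Read against all transcripts, the share of copies higher in the RIP followed the zeros of the input. The rule of size was at least 2-fold on the log2(FPKM + 1) scale, which understates the fold of low transcripts, over transcripts with a mean of RIP and input of at least 1 FPKM. For Mettl3 73 of 86 copies kept passed (84.9%), against 51.1% of all transcripts kept, but 63 of the 86 had an input of 0 and had to pass. For Zfp217 46 of 54 passed (85.2%) against 49.1%, and 41 had an input of 0. These counts are therefore a description of the selection. Among copies with an input above 0, 10 of 23 passed for Mettl3 (43.5%, background 37.6%) and 5 of 13 for Zfp217 (38.5%, background 28.4%). Their median log2 ratios were 0.96 and 0.86, against 0.86 and 0.74 over all such transcripts, so these copies were close to the background. An interval of the ratio could be computed for 4 copies in the Mettl3 table and 5 in the Zfp217 table. It held 1 in all but that of Gm23971 in the Zfp217 RIP.

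Both antibodies listed 40 of the copies, which were 37.7% of the Mettl3 copies and 53.3% of the Zfp217 copies. Over all transcripts 4026 were in both tables, 42.4% and 49.6%. The input is common to both tables. The RIP libraries were therefore set against each other without it, as log2 of (Mettl3 RIP + 1) over (Zfp217 RIP + 1). The median was 0.36 over the 40 copies and 0.06 over the 4026 transcripts. Of the 40 copies 24 were higher in the Mettl3 RIP and 16 in the Zfp217 RIP. Among the 4026 transcripts 2266 (56.3%) were higher in the Mettl3 RIP. At least 2-fold higher were 9 copies in the Mettl3 RIP, against 5.39% of all transcripts, and 2 in the Zfp217 RIP, against 3.43%.

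By family, the 22 clone-named misc_RNAs had a median log2 ratio of 0.75, with 17 higher in the Mettl3 RIP. The 9 U1 copies had a median of −0.02, the 6 7SK copies −0.29 and the 2 U6 copies 0.02. The 1 U2 copy in both tables was at −1.18. The difference between families was not tested. Several FPKM ratios of clone-named copies were close to 2.89, as in AC149222.1, AC158898.1 and AC159140.1 (2.89, 2.89 and 2.90). Between 230 and 320 nt 1 Mettl3 read was worth 0.723 to 0.732 of 1 Zfp217 read. These copies have no length in M21. If they lie in that range, this ratio would amount to about 3.97 Mettl3 reads per Zfp217 read. AC122247.1 and AL929466.1, at 4.34 and also without a length, would amount to about 5.96. For 20 copies in both tables the reads were recovered, and the interval of the ratio held 1 in 19 of them, Gm24136 being the exception. Gm22993 (AL645971.1), with 6 reads against 1 and a ratio of 4.35, had an interval of 0.527 to 199.9.

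**Figure D4:**
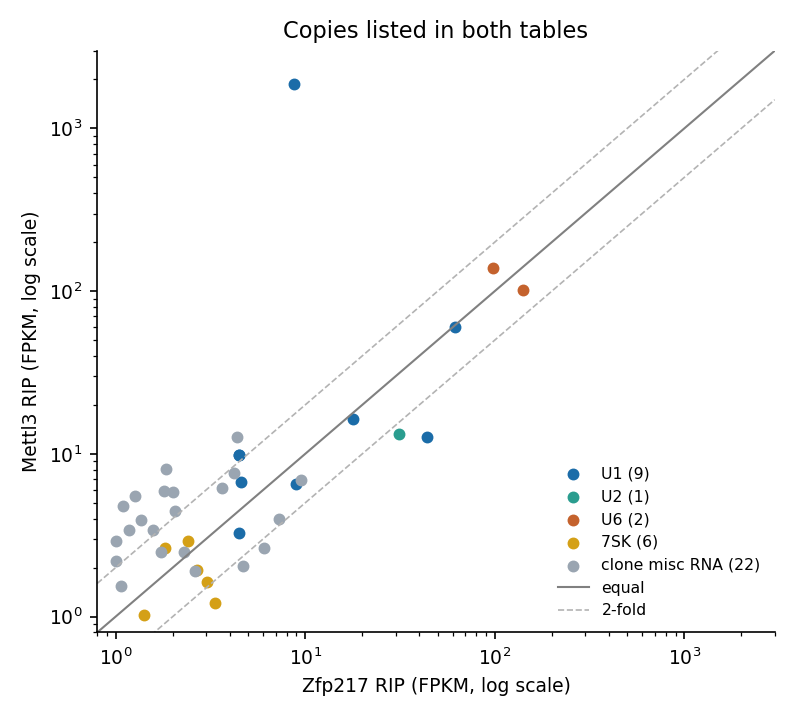
Mettl3 RIP against Zfp217 RIP level (FPKM, log scales) for the 40 copies in both tables, 1 point per copy, coloured by family, with lines for equal levels and 2-fold differences. The U1 copy Gm24136 (1867 and 8.77 FPKM) stands apart from the others, and 17 of the 22 clone-named misc_RNAs lie above the line of equal levels.

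The listed copies, matched by M21 identifier, were a small share of the annotated ones. By alignment, M21 holds 210 U1 copies, of which 18 were listed (8.57%), 54 U2 (4 listed), 11 U5 (2) and 961 U6 (18, 1.87%). It also holds 330 7SK copies (25, 7.58%) and 28 copies that aligned best to 7SL (11, 39.3%). None of the 60 U7, 5 U11 or 22 Y RNA copies was listed. Listed U1 copies matched a median 77.9% of the bases of their closest named gene, against 71.3% for those not listed, and listed U6 copies 90.7% against 80.4%. Copies that aligned best to 7SL went the other way, with 23.3% for those listed and 59.0% for those not listed.

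The place of a copy in the genome was set against that of copies not listed. In an intron of another gene, on the same strand, lay 32 of the 82 listed copies (39.0%) and 19.2% of the 1869 not listed, while 31.7% and 52.5% lay between genes. For U1 13 of 18 listed copies (72.2%) were in a same-strand intron, against 28.6% of those not listed. None of the 18 was in an intron on the other strand. For 7SK 11 of 25 (44.0%) were in a same-strand intron against 18.7%, and 10 of 25 were in an intron on the other strand, against 20.98%. For U6 these were 5 of 17 (29.4%) against 18.7%. Of 38 copies within a gene in the Mettl3 table, 17 had a listed host gene (44.7%), against 25.8% of 906 copies not listed there. On the same strand these were 6 of 23 (26.1%) and 24.9%. The 38 and the 23 include the RNase P copy Rprl1, whose host carries its own name and was not listed. Copies of this kind were not removed from either side. For Zfp217, 10 of 31 had a listed host (32.3%), against 20.3% of 912, and on the same strand 5 of 20, against 21.8%. The U1 copy Gm24145 lies in Zc3h7a, listed for both antibodies, and the U1 copy Gm23511 between genes. Whether reads of an intronic copy came from the copy or from the pre-mRNA around it was not tested, and whether strand was used in counting is not given in the sources used here.

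**Figure D5:**
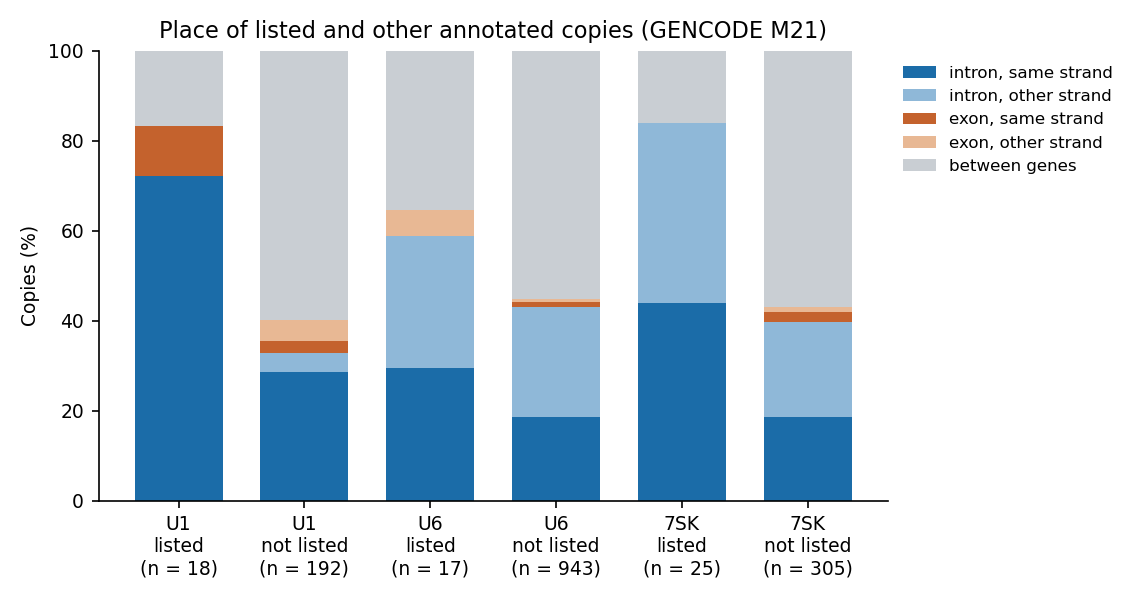
Share of copies (%) in an intron or exon of another gene, on the same or the other strand, or between genes, for listed and not listed U1, U6 and 7SK copies of GENCODE M21, with the number of copies under each bar. Same-strand introns hold 72.2% of listed U1 copies and 28.6% of the rest, and 44.0% and 18.7% for 7SK.

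GGACT, the core of the sequence that the Mettl3 enzyme methylates, was searched on the transcript strand. It was found in 12 of 54 Mettl3 copies (22.2%), 15 of 48 Zfp217 copies (31.3%) and 9.48% of annotated copies not listed, whose median lengths were 178.5, 191.5 and 107 nt. Within families of like length, it was found in 10 of 25 listed 7SK copies and 20.98% of the others, in 8 of 18 U1 copies (44.4%) and 30.7%, and in no listed U6 copy against 1.70%. None of the 11 listed copies that aligned best to 7SL held it. The shorter run GGAC was found in 57.4% of Mettl3 copies, 60.4% of Zfp217 copies and 28.4% of those not listed. For GGAC, listed and other copies were closer in 7SK (18 of 25 against 64.9%) and U1 (9 of 18 against 43.8%). In U6, GGAC was found in 1 of 18 listed copies and 11.03% of the others. All 11 listed copies that aligned best to 7SL held GGAC, against 76.5% of those not listed. The 11 matched a median 23.3% of the bases of their closest 7SL gene, and those not listed 59.0%.

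The mRNAs of proteins that bind, process or modify these RNAs were followed in 10 lists of 116 symbols, with 1 transcript per symbol in counts and medians. A transcript named below can be another one of the same symbol, so its fold need not match the count. For Mettl3 57 symbols were listed, 47 were kept and 20 of these (42.6%) were at least 2-fold higher, against 48.6% of all symbols. For Zfp217 63 were listed, 44 kept and 17 (38.6%) at least 2-fold higher, against 45.5%. The median log2 ratios were 0.89 and 0.83, against 0.98 and 0.92. Of the Sm ring 1 of 8 symbols was listed for Mettl3 and 2 for Zfp217, none at a mean of 1 FPKM.

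Of the U1 proteins 2 of 5 kept passed for Mettl3 and 0 of 4 for Zfp217. Luc7l3, which helps choose the 5′ splice site, was at 2.80 and 9.37 FPKM (input and Mettl3 RIP), 3.34-fold higher. Of the U2 proteins 1 of 3 passed for Mettl3 and 1 of 2 for Zfp217, and Snrpa1 was at 5.67 and 11.6 FPKM for Mettl3. The U4/U6 and U5 proteins had 5 of 10 and 9 of 11 past the rule. Among transcripts of this list with both values at least 1 FPKM, Nhp2l1 had the highest ratio for both antibodies. It was at 1.30 and 29.6 FPKM for Mettl3 and 1.32 and 19.8 FPKM for Zfp217. Ppih, a cyclophilin of the tri-snRNP, was at 2.36 and 15.0 FPKM for Mettl3, and Lsm2, part of the ring at the U6 end, at 9.42 and 21.9 FPKM for Zfp217. The lowest ratios were those of Lsm3 for Mettl3 (16.3 and 24.6 FPKM) and Prpf31 for Zfp217 (2.12 and 3.64 FPKM). In the minor spliceosome 2 of 2 passed for Mettl3 and 1 of 4 for Zfp217, with Zrsr1 at 2.10 and 5.31 FPKM for Mettl3.

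Of the 7SK proteins 1 of 5 passed for Mettl3 and 1 of 4 for Zfp217. The P-TEFb cyclin Ccnt2 was at 2.24 and 7.34 FPKM for Mettl3, the kinase Cdk9 at 7.96 and 16.7 FPKM for Zfp217, and the 7SK binder Larp7 at 4.51 and 7.04 FPKM for Zfp217. Of the signal recognition particle proteins 2 of 4 passed in each table, with Srp14 at 1.49 and 6.73 FPKM for Mettl3. Of the Ro, La, RNase P and MRP proteins 2 of 4 passed for Mettl3 and 0 of 5 for Zfp217. Ssb, the La protein that binds the ends of RNA polymerase III transcripts, was at 2.62 and 7.05 FPKM for Mettl3 and 2.65 and 7.06 FPKM for Zfp217. This Ssb transcript passed the rule for Zfp217 (log2 ratio 1.14) and is not the one counted there. Of the factors of snRNA transcription, processing and assembly 5 of 12 passed for Mettl3 and 1 of 8 for Zfp217, where Cpsf3l, the endonuclease of the Integrator complex, was at 3.15 and 7.11 FPKM. Mettl16 was at 1.69 and 3.47 FPKM and Mettl4 at 1.51 and 2.49 FPKM for Mettl3, where 0 of 2 passed. For Zfp217 2 of 2 passed, but no listed transcript of either had an input of at least 1 FPKM there.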

How the data were processed

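RIP-seq libraries of CCE mouse embryonic stem cells (1 Mettl3 RIP, 1 Zfp217 RIP, 1 input) were used as the authors deposited them: 2 tables of FPKM values per Ensembl transcript, with the authors' log2 fold change, which is another form of the same FPKM ratio and was not used. Per the labels' protocols, complexes were pulled down from nuclear lysate on protein G beads and Trizol-extracted RNA went into a TruSeq kit. The submitters' processing notes name Bowtie2, TopHat2 2.0.8, Cuffdiff, Cufflinks, CASAVA 1.4 and the build mm9, without saying what each was used for. Groups came from titles and antibody labels.

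Copies were taken by class and symbol. The members and gene lists were chosen with earlier results of these data known. Ratios were log2((RIP + 1)/(input + 1)) over transcripts with a mean of at least 1 FPKM, and inputs under 0.01 FPKM gave no fold. Reads were recovered by fitting, within each table, the FPKM of 1 read as a function of GENCODE M21 length (95 to 360 nt), with a tolerance of 0.1 read, and tested on simulated data. The simulation drew whole reads under the fragment-length model that starts the fit, with no reads shared between copies. It therefore could not check the counts of near-identical copies. Library totals are unknown, since the tables are selections. Intervals are exact binomial intervals at 95% (scipy 1.17.1) of reads, which without molecular identifiers are not independent molecules. A read count stated at an assumed length is conditional on it. Sequences were read from GENCODE M21 transcripts by identifier and aligned with Biopython 1.88 (minimum score 30). The sequences of U5, U6 and 7SL copies are not reported here. No coordinate was taken from mm9. Named were every copy of families of up to 5, the 3 highest per table of larger families, every copy with an input of at least 0.01 FPKM, and the 10 copies in both tables with the highest lower RIP value. Of the partner mRNAs at the ends of each list with both values at least 1 FPKM, only a part was named, mostly from the high end. Gm22220, Gm22993, Gm23511 and the clone-named examples of the RIP ratio were chosen after their values were seen.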

Additional observations from a re-analysis of the deposited data

How the results depend on the processing

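The medians of RIP over input stayed above 0 by construction, since every listed RIP value is above its input. The median of Mettl3 over Zfp217 also stayed above 0. The counts moved under some settings and little under others. The count of copies at least 2-fold higher was 73 for Mettl3 and 46 for Zfp217. It was 38 and 24 with a pseudocount of 5 FPKM, 10 and 5 without inputs under 0.01 FPKM, and 42 and 15 with 1 transcript per symbol and class. At 4-fold it was 48 for Mettl3 and 34 for Zfp217, and at 1.5-fold 81 and 50. A pseudocount of 0.1 FPKM gave 78 and 49. Without the filter the count was 93 of 106 and 67 of 75, and without transcripts under 150 nt 58 of 70 and 37 of 44. The median log2 ratio, 2.17 and 2.40, was 5.14 and 5.46 with a pseudocount of 0.1 FPKM, 0.87 and 0.93 with 5 FPKM, 1.92 and 1.83 without the filter, 0.96 and 0.86 without inputs under 0.01 FPKM, 1.91 and 1.59 with 1 transcript per symbol and class, and 1.97 and 2.18 without transcripts under 150 nt. With inputs of 0 the pseudocount sets the ratio by construction. The 40 copies in both tables were 23 at a RIP of at least 2 FPKM in both and 8 where both inputs were at least 0.01 FPKM. The median Mettl3 over Zfp217 log2 ratio, 0.36, was 0.31 with each RIP divided by its median, 0.51 with a pseudocount of 0.1 FPKM and 0.16 with 5 FPKM. No paired analysis was possible because each group had 1 library, and no library could be left out. Of the copies with recovered reads, 38 of 51 for Mettl3 and 41 of 47 for Zfp217 had 3 or fewer, and 55 Mettl3 and 28 Zfp217 values had no recovered reads, most of them for want of a length in M21.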
